A study of Cricetulus griseus with 6 samples.

Results

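The genes described here encode the machinery that sorts membrane proteins into the vesicles of multivesicular bodies, from which exosomes are released: the 4 ESCRT complexes, the VPS4 disassembly ATPase with its cofactor, the ALIX and syntenin branch, and ubiquitin regulators that act with them. The list was set by gene symbol, though with earlier results of these data known, and held 36 genes. Of these, 35 had a row among the 27873 entries of each file. *Mvb12b*, for an ESCRT-I subunit, was not analysed here. The 35 genes were all above the filter of a mean of 0.1 FPKM (fragments scaled to transcript length and to the number of mapped fragments), so none was lost to low values.

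RNA-Seq was performed on CHO-T cells, a Chinese hamster ovary cell line that had been infected with a retrovirus carrying full-length mouse T-cadherin cDNA (gene *Cdh13*) and selected with puromycin. Both groups carried this insertion. Cells received either a negative control siRNA (3 libraries) or an siRNA against *Xbp1* (3 libraries), and RNA was taken 2 days later. *Xbp1* encodes a transcription factor of the unfolded protein response, whose mRNA is spliced by the ER stress sensor IRE1α. The study asked how ER stress alters exosome production, and the comparison made here is between these 2 siRNA groups only. T-cadherin was driven by viral elements in a single line, a single siRNA sequence was used against *Xbp1*, and no label says whether the 3 libraries of a group came from separate cultures. The study's statistics section names independent biological experiments as a general rule, without tying that to these libraries. The p-values measure the spread between libraries, which may be technical.

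As background, ESCRT-0 binds ubiquitinated cargo on endosomes, ESCRT-I and ESCRT-II deform the membrane into a bud, and ESCRT-III subunits of the CHMP family assemble into spirals that narrow its neck. VPS4 pulls these filaments apart with energy from ATP. A parallel route uses the adaptor syntenin, which couples syndecans to ALIX, and ALIX recruits ESCRT-III directly. TSG101, ALIX and syntenin are carried into the vesicles themselves and are widely used as exosome markers, which is why their genes are given in full here.

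The targeted gene was examined first. *Xbp1* stood at 26.8 ± 1.35 FPKM (SD, n = 3) in control libraries and at 1.89 ± 0.440 FPKM in *Xbp1* siRNA libraries, so its mRNA fell by 93.0%, with a log2 fold change of −3.78 (SE 0.16). *Cdh13* fell from 85.2 ± 0.478 to 32.9 ± 0.476 FPKM. The 6 libraries summed to between 593487 and 666267 FPKM, with the 3 *Xbp1* siRNA libraries below the 3 controls, and their relative depth, read from the steps between low values, lay between 94.0% and 116% of the first control library. Correlation across genes between libraries of the same group was 0.966 to 0.972. The labels give ovary as the tissue. The granulosa cell markers that had a row were low or at 0 in control libraries (*Fshr* 0, *Amh* 2.69 and *Inha* 2.63 FPKM), and *Foxl2* and *Cyp19a1* were not analysed here. Of 4 leukocyte markers, *Ptprc* and *Cd3e* were listed at 0 in all 6 libraries, *Csf1r* averaged at most 0.056 FPKM, and *Cd68*, a lysosomal protein gene that other cells also express, read 5.18 to 6.15 FPKM in control and 6.99 to 8.80 FPKM in *Xbp1* siRNA libraries. None of 4 endothelial markers averaged above 0.175 FPKM in either group, with *Cdh5* at 0. The mesenchymal gene *Vim* fell from 377 ± 10.7 to 304 ± 13.2 FPKM, whereas the matrix gene *Fn1* rose from 13.1 ± 0.432 to 23.3 ± 0.123 FPKM and the epithelial gene *Cdh1*, at a low level, rose from 0.131 ± 0.0970 to 0.434 ± 0.104 FPKM (limma, adjusted p = 0.0489 for *Cdh1*). *Col1a1* and *Krt18*, of the same list, were listed at 0. The part of these differences in the results was not tested. In cells measured in bulk, fewer cells with a transcript and less of that transcript per cell cannot be told apart.

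Most genes of the exosome machinery changed little when *Xbp1* was silenced. Of the 35 genes, 8 rose, 7 fell and 20 did not pass an adjusted p of 0.05 (limma, Benjamini-Hochberg over 14361 genes). The 15 that passed were 42.9% of the list, beside 40.4% of all genes tested, of which 20.2% rose and 20.2% fell. None of the 35 also reached a log2 fold change of 1 in either direction, the limit of the study, at the adjusted p or at an unadjusted p under 0.05, whereas 5.19% of all genes passed both limits. The change was under 0.3 in size for 27 of the 35, while 46.3% of all genes, and 34.4% of those with a mean of at least 10 FPKM, changed by 0.3 or more. The median size was 0.16, beside 0.27 over all genes and 0.21 over those with at least 10 FPKM. The median signed change was −0.018 against 0.0063 over all genes. In 20 of the 35 (57.1%) the 3 *Xbp1* siRNA libraries did not overlap the 3 controls, beside 51.8% of all genes. Among the 7458 genes with a mean of at least 10 FPKM, 54.3% were called, and of the 33 members at that level 45.5% were called. The counts of higher and lower members depended on the scaling, with 11 higher and 6 lower after quantile normalization, which forces the libraries onto the same distribution and over all genes gave 3115 higher and 2653 lower, against 2898 and 2904 without it. Without control replicate 2, 5 members rose and 6 fell, while over all genes 2430 rose and 2522 fell.

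The 2 genes that moved most encode an ESCRT-I and an ESCRT-III subunit. *Vps37b* fell to 50.3% and *Ist1* to 54.1% of the control level. Smaller falls were found for *Snf8*, *Vps37c*, *Vps28*, *Vps36* and *Usp8*. The genes that rose were *Vps37a*, *Stam2*, *Vta1*, *Vps4b*, *Chmp7*, *Chmp6*, *Chmp3* and *Pdcd6*. They were spread over 5 of the 7 functional groups, as were the genes that fell over 4 of them.

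**Figure D1:**
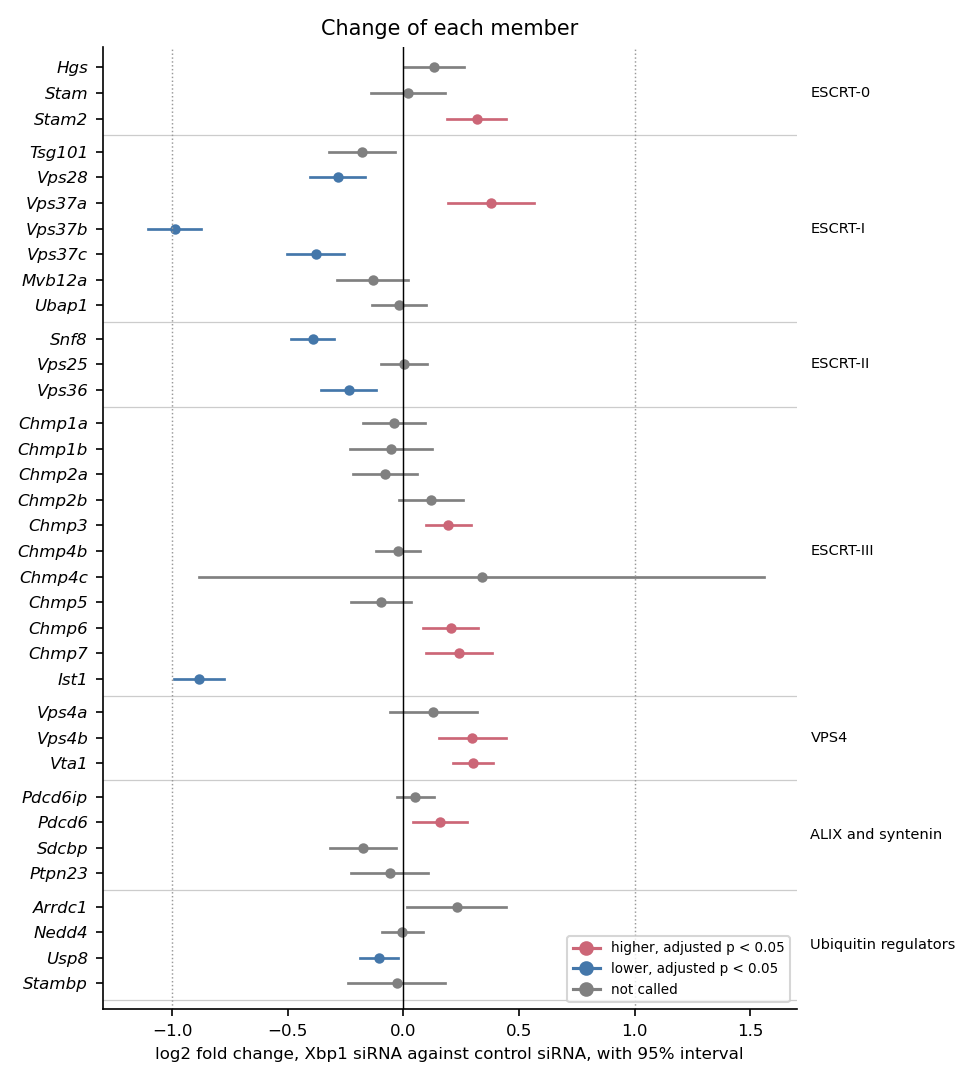
Log2 fold change of each of the 35 genes in *Xbp1* siRNA against control siRNA libraries (3 each), with 95% intervals from limma, grouped by complex; dotted lines mark −1 and 1. *Vps37b* (−0.99) and *Ist1* (−0.88) lie nearest the lower line, and every other gene lies between −0.39 and 0.38. After quantile normalization *Chmp4b* moved from −0.022 to 0.13.

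The machinery was well expressed in these cells before silencing. FPKM values are per length of transcript and so can be set side by side between genes. In control libraries 33 of the genes averaged between 14.9 and 241 FPKM. The ESCRT-III filament subunit *Chmp4b* was the highest at 241 ± 9.64 FPKM, above 97.7% of expressed entries, followed by the ubiquitin ligase gene *Nedd4* at 183 ± 7.22 and the ESCRT-II gene *Vps25* at 130.3 ± 6.97. The deubiquitinase gene *Stambp* was low at 9.58 ± 0.874 FPKM. *Chmp4c*, a paralog of *Chmp4b* with a role in the abscission checkpoint, was near the floor, and its values correspond to 3, 0 and 4 reads in control libraries and 3, 2 and 6 reads in *Xbp1* siRNA libraries. No change of *Chmp4c* can be read at this depth. The replicates were tight, with a median coefficient of variation over the genes of 4.88% in control and 4.47% in *Xbp1* siRNA libraries.

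**Figure D2:**
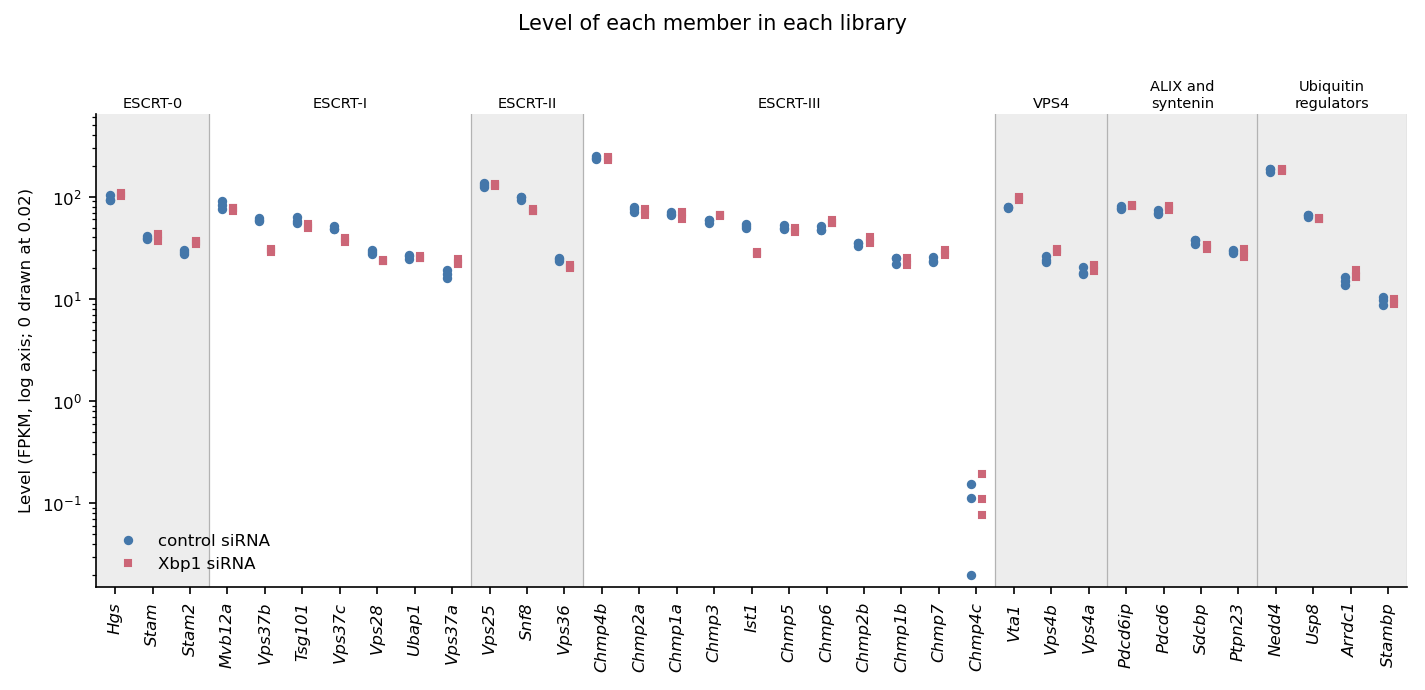
FPKM of each of the 35 genes on a log axis in each of 3 control siRNA (circles) and 3 *Xbp1* siRNA (squares) libraries, grouped by complex; a value of 0 is drawn at 0.02. All values but those of *Chmp4c* lie between 8.62 and 252 FPKM, and for *Vps37b* and *Ist1* the squares lie clearly below the circles.

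ESCRT-0 is built from HRS and a STAM protein, which together hold ubiquitinated cargo. *Stam2* read 27.4, 30.2 and 28.7 FPKM in control replicates 1 to 3 and 34.1, 37.3 and 36.0 FPKM in *Xbp1* siRNA replicates 1 to 3. The *Xbp1* siRNA libraries were all higher, and *Stam2* rose by 0.32 on the log2 scale (SE 0.055, adjusted p = 0.00308 by limma). Its paralog *Stam* stood at 39.9 ± 1.17 and 40.5 ± 3.60 FPKM, with a log2 fold change of 0.020 (95% interval −0.14 to 0.18), and did not pass. *Stam2* thus made up 41.9% ± 1.25 of the summed *Stam* and *Stam2* level in control and 47.0% ± 1.16 in *Xbp1* siRNA libraries. *Hgs*, which encodes HRS, went from 96.9 ± 6.77 to 106 ± 3.81 FPKM with overlapping groups, a log2 fold change of 0.13 that did not pass (adjusted p = 0.0964). Without control replicate 1, the highest of its controls, *Hgs* passed at 0.19 (adjusted p = 0.0139), and after quantile normalization at 0.21 (adjusted p = 0.0156). It passed in 3 of 14 alternatives, with adjusted p from 0.0139 to 0.245.

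ESCRT-I is a rod of TSG101, VPS28, a VPS37 protein and either an MVB12 protein or UBAP1. In this complex 3 of the 7 genes measured fell and 1 rose, so 57.1% were called. This stood beside 40.4% of all genes and 54.3% of those with a mean of at least 10 FPKM, as all 7 had. The log2 fold change was negative for every gene but *Vps37a*, although that of *Ubap1* turned to 0.028 after quantile normalization. The VPS37 family supplies alternative stalk subunits, and its members moved in opposite directions. *Vps37b* read 62.5, 59.6 and 57.3 FPKM in control replicates 1 to 3 and 30.2, 31.1 and 28.9 FPKM in *Xbp1* siRNA replicates 1 to 3. The lowest control was well above the highest *Xbp1* siRNA library, and *Vps37b* fell by 0.99 on the log2 scale (SE 0.049, adjusted p = 8.68e-06, rank 167 by p among 14361 genes). Leaving out control replicate 3 or *Xbp1* siRNA replicate 2 took it past 1 in size, with −1.02 as the largest value.

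*Vps37c* read 51.4, 47.9 and 48.9 FPKM in controls and 39.5, 38.7 and 35.7 FPKM in *Xbp1* siRNA libraries. The groups were again apart, and *Vps37c* fell by 0.38 (SE 0.052, adjusted p = 0.00100). *Vps37a* read 16.2, 19.3 and 17.5 FPKM in controls and 22.3, 24.7 and 22.0 FPKM in *Xbp1* siRNA libraries. All *Xbp1* siRNA libraries were above all controls, and *Vps37a* rose by 0.38 (SE 0.079, adjusted p = 0.00713). In a RefSeq table of Chinese hamster genes *Vps37a* overlaps *Mtmr7*, and whether the fragment counting assigned reads by strand is not given in the sources used here.

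The 3 paralogs together fell from 127 ± 3.15 to 91.1 ± 4.03 FPKM, to 71.8% of control. *Vps37b* supplied 47.1% ± 0.848 of this sum in control and 33.1% ± 0.265 in *Xbp1* siRNA libraries, and *Vps37a* supplied 14.0% ± 1.41 and 25.3% ± 0.931. *Vps37c* supplied 38.9% ± 1.01 and 41.7% ± 1.06, and so became the most abundant of the 3. With *Vps37d*, another paralog at 12.4 FPKM in controls, added to the sum, the *Vps37b* share was 42.9% and 28.7% and the *Vps37c* share 35.5% and 36.2%, with overlapping groups for *Vps37c*. The log2 ratio of *Vps37b* to *Vps37a* went from 1.75 ± 0.167 to 0.39 ± 0.050, and that of *Vps37c* to *Vps37a* from 1.48 ± 0.178 to 0.72 ± 0.089. Both gave p = 0.10 in an exact two-sided permutation test over the 6 libraries, the smallest that 3 against 3 allows, and 0.16 after adjustment over 8 paralog pairs.

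**Figure D3:**
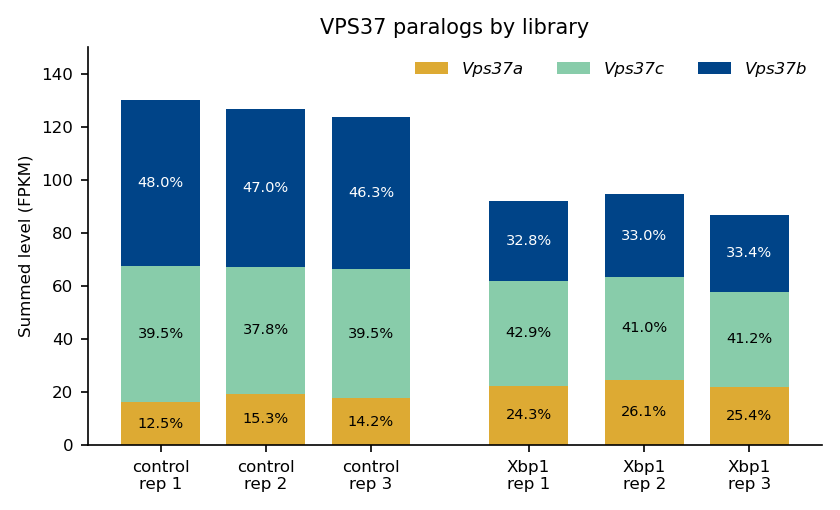
Stacked FPKM of *Vps37a*, *Vps37b* and *Vps37c* in each library, with each replicate as a bar. The bars total 124 to 130.0 FPKM in controls and 86.6 to 94.5 FPKM in *Xbp1* siRNA libraries, and the *Vps37b* segment holds 46.3% to 48.0% of the bar in controls and 32.8% to 33.4% in *Xbp1* siRNA libraries.

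*Tsg101*, which encodes the cargo-binding head of ESCRT-I, read 55.1, 57.7 and 62.9 FPKM in control replicates 1 to 3 and 49.3, 54.5 and 51.5 FPKM in *Xbp1* siRNA replicates 1 to 3. The groups did not overlap, though the gap between the lowest control and the highest *Xbp1* siRNA library was small. The log2 fold change was −0.18 (95% interval −0.32 to −0.035), and it did not pass over all genes (adjusted p = 0.0522). It passed without control replicate 1 (−0.22, adjusted p = 0.0328), without *Xbp1* siRNA replicate 2 (−0.22, adjusted p = 0.0451) and with a filter at a mean of 1 FPKM (adjusted p = 0.0445), but in only 4 of 14 alternatives, over which the change ran from −0.22 to −0.12 and the adjusted p from 0.0328 to 0.176. *Vps28*, whose product links ESCRT-I to ESCRT-II, fell from 29.0 ± 1.42 to 23.8 ± 0.406 FPKM (log2 fold change −0.28, adjusted p = 0.00353). The alternative subunit genes *Mvb12a* and *Ubap1* did not pass, at −0.13 (adjusted p = 0.148) and −0.018 (adjusted p = 0.808). *Mvb12a* passed without control replicate 3 (−0.20, adjusted p = 0.0358), but stood at −0.074 without control replicate 1 and −0.070 after quantile normalization (adjusted p up to 0.404 over 14 alternatives). *Ubap1*, which belongs to an ESCRT-I form devoted to endosomal sorting, stood at 25.9 ± 1.08 and 25.6 ± 0.712 FPKM.

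ESCRT-II holds SNF8, VPS36 and a pair of VPS25 copies, and VPS25 recruits ESCRT-III. *Snf8* read 99.6, 99.0 and 92.9 FPKM in control replicates 1 to 3 and 73.0, 73.2 and 75.8 FPKM in *Xbp1* siRNA replicates 1 to 3. The *Xbp1* siRNA libraries were all lower, and *Snf8* fell by 0.39 on the log2 scale (SE 0.040, adjusted p = 2.34e-04). *Vps36*, for the subunit that contacts ubiquitin and membrane, fell from 24.4 ± 0.806 to 20.7 ± 0.671 FPKM (log2 fold change −0.24, adjusted p = 0.00806); it overlaps *Psmd4* in the RefSeq table. *Vps25* stood at 130.3 ± 6.97 and 130.4 ± 1.51 FPKM, with a log2 fold change of 0.0028 (95% interval −0.098 to 0.10) and no stable sign when libraries were left out.

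**Figure D4:**
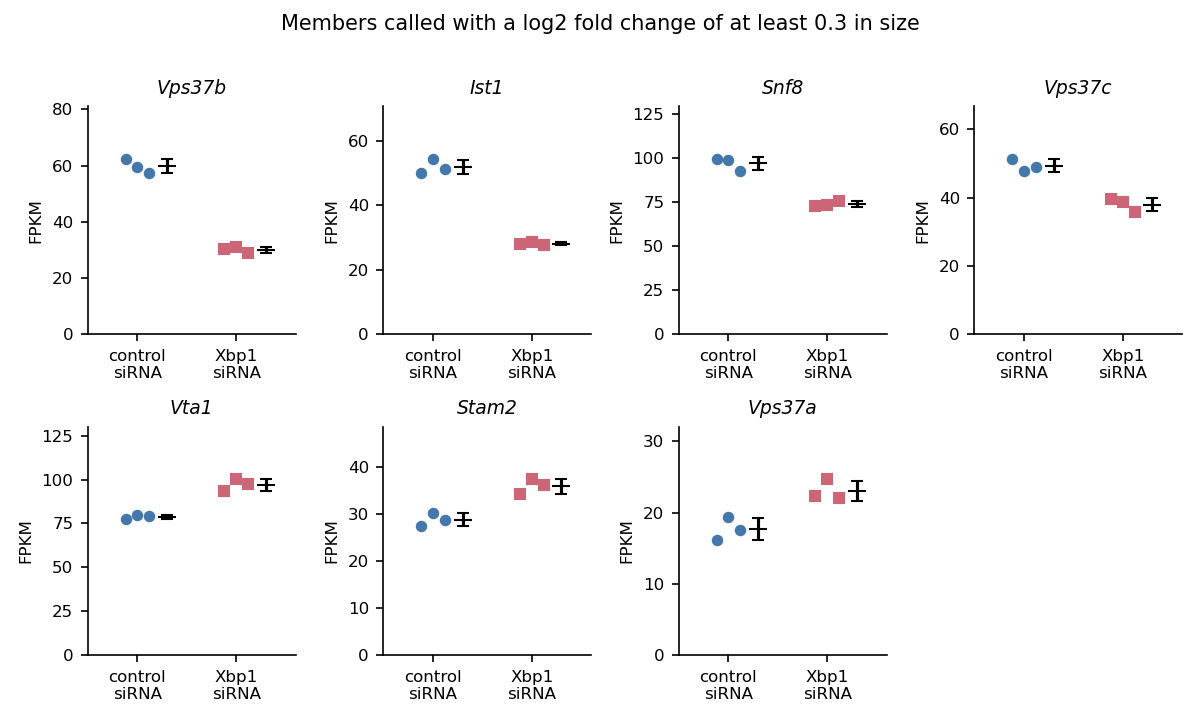
FPKM in each library (points) and mean ± SD (black marks, n = 3) for the 7 genes with an adjusted p under 0.05 and a log2 fold change of at least 0.3 in size, each on its own axis from 0. No *Xbp1* siRNA point overlaps a control point for any of the 7, which were chosen by these same values. Of all genes tested, 51.8% do not overlap. *Vps37b* and *Ist1* fall to 50.3% and 54.1% of control, and *Vps37a* rises by 0.38 on the log2 scale.

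ESCRT-III was represented by 11 genes, of which 3 rose, 1 fell and 7 did not pass. The share called was 36.4%, beside 40.4% of all genes and 54.3% of those with a mean of at least 10 FPKM. *Ist1*, whose product joins ESCRT-III and binds VPS4 and the CHMP1 proteins, read 50.0, 54.5 and 51.4 FPKM in control replicates 1 to 3 and 28.0, 28.7 and 27.7 FPKM in *Xbp1* siRNA replicates 1 to 3. The groups lay far apart relative to their spread, and *Ist1* fell by 0.88 on the log2 scale (SE 0.046, adjusted p = 1.06e-05, rank 185 by p). Its partner genes *Chmp1a* and *Chmp1b* did not pass, at −0.041 (95% interval −0.17 to 0.091) and −0.054 (−0.23 to 0.12). In the same RefSeq table *Chmp1a* overlaps *Spata33* and *Chmp1b* overlaps *Gnal*.

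The genes that rose in ESCRT-III did so by small amounts. *Chmp3*, for a subunit that caps and bundles the filament with CHMP2A, rose from 57.8 ± 2.51 to 66.1 ± 0.881 FPKM (log2 fold change 0.19, adjusted p = 0.00826). *Chmp6*, for the subunit that ESCRT-II engages to start a filament, rose from 49.0 ± 2.62 to 56.5 ± 2.18 FPKM (0.20, adjusted p = 0.0160). *Chmp7*, for the subunit that seals the nuclear envelope, rose from 24.0 ± 1.38 to 28.4 ± 1.44 FPKM (0.24, adjusted p = 0.0169). The last 2 calls were narrow, with adjusted p over 14 alternatives of 0.00428 to 0.0570 for *Chmp6* and 0.00756 to 0.0571 for *Chmp7*. *Chmp6* did not pass without control replicate 2 (adjusted p = 0.0570), control replicate 3 (0.0530) or *Xbp1* siRNA replicate 1 (0.0537). *Chmp7* did not pass without control replicate 2 (adjusted p = 0.0551) or *Xbp1* siRNA replicate 1 (0.0571).

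The core of the filament did not pass the test. *Chmp4b*, which forms the main polymer, read 235 to 252 FPKM in controls and 229 to 244 FPKM in *Xbp1* siRNA libraries, with a log2 fold change of −0.022 (95% interval −0.12 to 0.074). After quantile normalization this was 0.13 in the opposite direction and passed (adjusted p = 0.0252, and up to 0.936 over the 14 alternatives). The sign also turned without control replicate 1 (0.011) and without *Xbp1* siRNA replicate 2 (0.0056). The sign for *Chmp4b* thus rests on the scaling and on single libraries. *Chmp2a* and *Chmp2b* encode alternative subunits that recruit VPS4, and had log2 fold changes of −0.080 (adjusted p = 0.328) and 0.12 (adjusted p = 0.156). *Chmp5*, whose product binds the VPS4 cofactor, had −0.096 (adjusted p = 0.208).

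Of the 3 VPS4 genes, 2 rose and *Vps4a* did not pass, beside 20.2% of all genes that rose. *Vta1*, for the cofactor that stabilises and stimulates VPS4, read 77.4, 79.6 and 79.2 FPKM in control replicates 1 to 3 and 93.5, 100.1 and 97.4 FPKM in *Xbp1* siRNA replicates 1 to 3. Every *Xbp1* siRNA library was above every control, and *Vta1* rose by 0.30 on the log2 scale (SE 0.037, adjusted p = 5.92e-04). The ATPase gene *Vps4b* rose from 24.3 ± 1.67 to 29.8 ± 1.07 FPKM (0.30, adjusted p = 0.00673). Its paralog *Vps4a* stood at 18.8 ± 1.56 and 20.5 ± 1.47 FPKM with overlapping groups (0.13, 95% interval −0.059 to 0.32, adjusted p = 0.245). The log2 ratio of *Vps4b* to *Vps4a* was 0.37 ± 0.052 in control and 0.54 ± 0.14 in *Xbp1* siRNA libraries without overlap (exact permutation p = 0.10, the smallest possible, and adjusted 0.16). The difference of 0.17 was 0.091 without *Xbp1* siRNA replicate 1.

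In the ALIX and syntenin branch 1 of 4 genes passed (25%, beside 40.4% of all genes and 54.3% of those with a mean of at least 10 FPKM). Between groups 3 of the 4 did not overlap, beside 51.8% of all genes. *Pdcd6ip*, which encodes ALIX, read 80.6, 78.3 and 76.7 FPKM in control replicates 1 to 3 and 80.7, 82.4 and 81.1 FPKM in *Xbp1* siRNA replicates 1 to 3. The groups touched without overlapping, and the log2 fold change was 0.052 (95% interval −0.027 to 0.13, adjusted p = 0.267). After quantile normalization it was 0.11 and passed (adjusted p = 0.0244), the only 1 of 14 alternatives in which it did (adjusted p up to 0.512). *Sdcbp*, which encodes syntenin, read 34.3, 37.6 and 38.0 FPKM in controls and 32.8, 34.1 and 30.5 FPKM in *Xbp1* siRNA libraries. Control replicate 1 lay just above the highest *Xbp1* siRNA library, and the log2 fold change of −0.18 (95% interval −0.32 to −0.034) did not pass (adjusted p = 0.0531). *Sdcbp* passed without control replicate 1 (−0.22, adjusted p = 0.0268), without *Xbp1* siRNA replicate 2 (−0.21, adjusted p = 0.0493) and with the filter at a mean of 1 FPKM (adjusted p = 0.0453), and in none of the other 11 of 14 alternatives, with adjusted p up to 0.159. The mRNAs of the 3 exosome markers thus stood at 88.4% (*Tsg101*), 104% (*Pdcd6ip*) and 88.5% (*Sdcbp*) of control, none past the threshold over all genes.

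*Pdcd6*, for the calcium sensor ALG-2 that binds ALIX, rose from 70.6 ± 3.07 to 78.8 ± 3.92 FPKM (log2 fold change 0.16, adjusted p = 0.0410). This call did not hold without control replicate 1 or 2 or without *Xbp1* siRNA replicate 2 or 3, where the adjusted p was 0.0969 to 0.126, and held in 9 of 14 alternatives (adjusted p from 0.0131 to 0.126). *Ptpn23*, for the ALIX relative HD-PTP, which links ESCRT-0 to ESCRT-III, had −0.059 (95% interval −0.23 to 0.11, adjusted p = 0.552).

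The ubiquitin regulators had the smallest median size of change of any group, 0.067 on the log2 scale over 4 genes, with *Arrdc1* the largest at 0.23. The median was 0.27 over all genes and 0.21 over those with a mean of at least 10 FPKM. Of the 4 regulators 1 passed (25%, beside 40.4% of all genes and 54.3% of those with at least 10 FPKM). *Nedd4*, for a ubiquitin ligase that marks cargo and binds arrestin-like adaptors, stood at 183 ± 7.22 and 182 ± 3.90 FPKM, with a log2 fold change of −0.0040 and a 95% interval of −0.093 to 0.085. Quantile normalization turned this to 0.11, outside that interval, and it did not pass (adjusted p = 0.0705 by limma). *Arrdc1*, for the adaptor that draws TSG101 to the plasma membrane for direct budding, went from 14.9 ± 1.43 to 17.5 ± 1.53 FPKM without overlap and did not pass (0.23, adjusted p = 0.0833). It passed without control replicate 1, at 0.30 (adjusted p = 0.0415), and in 2 of 14 alternatives in all (adjusted p from 0.0293 to 0.229). *Usp8*, for a deubiquitinase that acts on ESCRT-0 cargo, fell from 65.1 ± 1.67 to 60.5 ± 0.763 FPKM (−0.11, adjusted p = 0.0488), and lost this call without control replicate 2 or 3 or without any 1 of the *Xbp1* siRNA libraries (adjusted p = 0.0853 to 0.132). Over 14 alternatives *Usp8* kept its call in 4, with adjusted p from 0.0330 to 0.382. *Stambp*, for the deubiquitinase AMSH, stood at 9.58 ± 0.874 and 9.38 ± 0.550 FPKM and did not pass (−0.028, adjusted p = 0.837).

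Summed by complex, the levels differed in direction. The 7 ESCRT-I genes together went from 324 ± 5.71 to 268 ± 7.93 FPKM, 82.8% of control, and the 3 ESCRT-II genes from 252 ± 9.01 to 225 ± 1.27 FPKM, 89.4%. The ESCRT-0 sum went from 166 ± 4.76 to 182 ± 1.86 FPKM, 110.2% of control, and the VPS4 sum from 122 ± 3.86 to 147 ± 4.49 FPKM, 121%. The ALIX and syntenin sum stood at 103% of control. These 5 sums did not overlap between groups (exact two-sided permutation p = 0.10, the smallest possible, and 0.133 adjusted over 8 sums). Among single genes 51.8% did not overlap, and the share over sums of other genes was not computed. The 5 sums kept their direction under median-ratio scaling, quantile normalization and without any 1 library. Single genes carried much of the larger differences. *Vps37b* accounted for −29.7 of the −55.6 FPKM of ESCRT-I, *Snf8* for −23.2 of the −26.7 FPKM of ESCRT-II and *Vta1* for 18.3 of the 25.6 FPKM of the VPS4 sum. *Hgs*, which did not pass, accounted for 9.19 of the 16.9 FPKM of ESCRT-0. In the ALIX and syntenin sum, up by 5.72 FPKM, *Pdcd6* (8.18) and *Pdcd6ip* (2.86) were higher, and *Sdcbp* (−4.20) and *Ptpn23* (−1.12) lower. The ESCRT-III sum, of which *Chmp4b* made up 35.7% in control, overlapped between groups at 97.9% of control (exact p = 0.20), as did that of the ubiquitin regulators at 99.0% (exact p = 0.60). All 35 genes together summed to 2027 ± 10.4 FPKM in control and 1976 ± 5.16 FPKM in *Xbp1* siRNA libraries, 97.5% of control. This total did not overlap between groups either (exact permutation p = 0.10, adjusted 0.133). After quantile normalization this total was 103% of control, the ESCRT-III sum 104% and that of the ubiquitin regulators 106%, so these 3 directions rest on the scaling.

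Of 8 paralog pairs set against each other within libraries, 5 did not overlap between groups: those of VPS37 and VPS4 described above, *Stam2* to *Stam* (difference of 0.30 on the log2 scale) and *Chmp2b* to *Chmp2a* (0.20). The last of these was 0.093 without *Xbp1* siRNA replicate 2. Each of the 5 had the smallest possible exact permutation p of 0.10, adjusted 0.16. Both VPS37 ratios were taken to *Vps37a*, so they are not separate observations. Among single genes 51.8% did not overlap, and the share over other gene pairs was not computed. The ratios *Chmp1b* to *Chmp1a*, *Chmp4c* to *Chmp4b* and *Ptpn23* to *Pdcd6ip* overlapped.

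Genes that work beside this machinery also changed in both directions. Of 46 such genes listed, 43 had a row and 36 were tested, of which 13 rose, 7 fell and 16 did not pass. The share called was 55.6%, beside 40.4% over all genes and 54.3% over those with a mean of at least 10 FPKM. The median control level of the 36 was 20.6 FPKM. Without *Xbp1* siRNA replicate 3, 8 of them rose and 6 fell, while over all genes 2294 rose and 2540 fell. Among 16 other ESCRT paralogs and partners 6 rose and 2 fell, among 11 syntenin pathway genes 4 rose and 4 fell, and among 9 genes of NEDD4-type ligases and arrestin adaptors 3 rose and 1 fell. Whether these shares differ from those of the 35 genes was not tested.

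Several genes of the syntenin pathway changed while *Sdcbp* itself, at −0.18, did not pass. *Sdc4*, for a syndecan, a proteoglycan family whose cytoplasmic tails bind syntenin, fell from 212 ± 6.30 to 129 ± 2.08 FPKM (log2 fold change −0.72, adjusted p = 6.78e-06). *Sdc1*, for another syndecan, rose from 139 ± 3.66 to 170.1 ± 8.33 FPKM (0.29, adjusted p = 0.00153), and *Ptpn11*, for the phosphatase SHP2, rose by 0.31 (adjusted p = 5.52e-04). These 2 genes were chosen after their values were seen. A further syndecan gene, *Sdc2*, lay under the 1 FPKM limit for naming, on 5 to 20 reads per library. It rose by 0.94 (adjusted p = 0.0453 by limma) and passed in 6 of 13 alternatives. *Cd63*, for a tetraspanin that also binds syntenin and marks multivesicular bodies, fell from 679 ± 36.0 to 501 ± 3.01 FPKM (−0.44, adjusted p = 1.67e-04). After quantile normalization its change was −0.13. *Src*, for the kinase that drives syndecan and syntenin endocytosis, fell from 78.2 ± 3.19 to 56.0 ± 1.25 FPKM (−0.48, adjusted p = 1.14e-04). *Pld1*, for a phospholipase D isoform, rose from 0.917 ± 0.295 to 3.37 ± 0.196 FPKM (1.82, SE 0.24, adjusted p = 8.65e-04) and was the only gene of these lists past both limits of the study. Its level was low, and with a pseudocount of 1 its change was 1.20.

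Among ESCRT partners, *Cc2d1a*, for a CHMP4-binding protein, rose from 8.05 ± 0.233 to 16.1 ± 0.526 FPKM (0.99, adjusted p = 2.27e-05). *Lemd2*, for the nuclear envelope protein that recruits CHMP7, rose from 23.4 ± 1.42 to 34.2 ± 2.35 FPKM (0.55, adjusted p = 6.14e-04). *Pef1*, for a calcium-binding partner of ALG-2, fell from 104 ± 5.04 to 80.9 ± 3.78 FPKM (−0.36, adjusted p = 0.00106). In the NEDD4 family, the ligase genes *Wwp2* and *Itch* rose by 0.43 (adjusted p = 0.00136) and 0.31 (adjusted p = 0.00167) on the log2 scale. *Txnip*, for an arrestin-like protein, fell from 198 ± 4.77 to 137 ± 4.85 FPKM (−0.53, adjusted p = 4.02e-05).

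**Figure D5:**
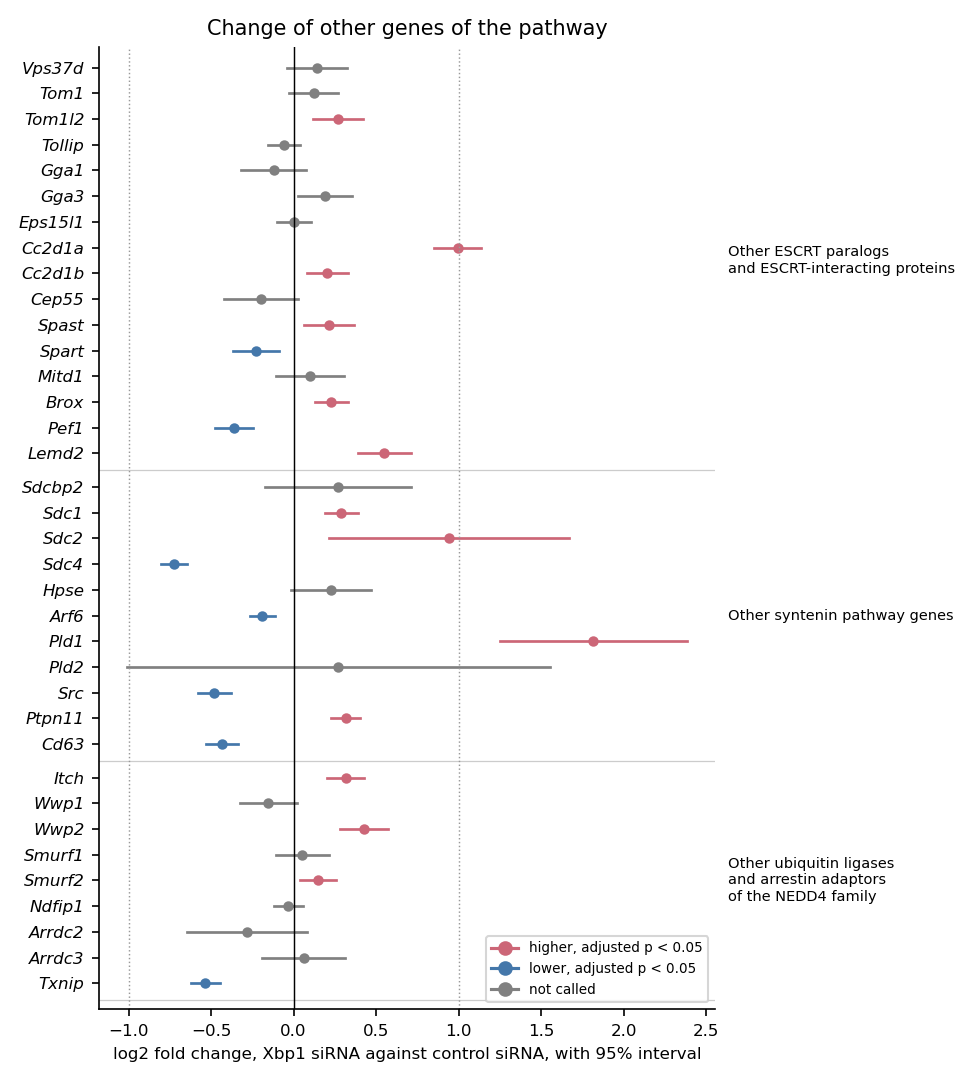
Log2 fold change of the 36 other genes tested from the ESCRT partner, syntenin pathway and NEDD4 family lists, *Xbp1* siRNA against control siRNA (3 libraries each), with 95% intervals from limma; dotted lines mark −1 and 1. *Pld1* (1.82) lies beyond the upper line, *Cc2d1a* (0.99) at it, and *Sdc4* (−0.72) is the lowest gene.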

How the data were processed

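RNA-Seq libraries (TruSeq stranded mRNA kit, Illumina sequencing) were processed by the authors into FPKM values per gene, 1 file per library, with HISAT2 2.1.0 and Cuffdiff 2.2.1 per the submitters' processing notes. The genome build and annotation are not given in the sources used here, so no coordinates are printed. The study's methods name a test on raw counts. FPKM are not counts, so log2(FPKM + 0.1) was tested with limma 3.58.1 (lmFit, eBayes with trend) in R 4.3.3, for genes with a mean of at least 0.1 FPKM. Adjusted p-values are Benjamini-Hochberg values over 14361 genes. Fold changes, being on the log2(FPKM + 0.1) scale, are understated for low genes. Read depth is not stated in the files. Where low values fell on whole multiples of a step (68.6% of 497 low genes, tolerance 0.03 reads), the step was taken as 1 read. This share was too low for a count test. Paralog ratios and sums were computed with Python 3.11.15 and scipy 1.17.1.

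The members and gene lists were chosen with earlier results of these data known. Every library is given for members called with a change of at least 0.3 and for the exosome markers *Tsg101*, *Pdcd6ip* and *Sdcbp*. Of the other lists, up to 5 genes in each direction with the largest changes and a mean of at least 1 FPKM are named. Alternatives were other pseudocounts, filters, scalings, no trend, a replicate block and each library left out.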

Additional observations from a re-analysis of the deposited data

How the results depend on the processing

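Of 487 member values recomputed under 14 alternatives, 431 kept their direction and side of the threshold, 21 lost a call, 15 gained one and 20 changed sign. Of the 15 called members, 11 kept call and direction under every alternative, and *Chmp6*, *Chmp7*, *Pdcd6* and *Usp8* did not. *Chmp4c* gave no value with a filter at 1 FPKM or without control replicate 3 or *Xbp1* siRNA replicate 3, where it fell under the filter. The 140 values recomputed for the 10 other pathway genes named by the rule all kept theirs, as did *Sdc1* and *Ptpn11* in 14 of 14 alternatives.

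With 1 library left out, members higher ranged from 5 to 9, members lower from 6 to 9, members lower with a log2 fold change of at least 1 in size from 0 to 1 (*Vps37b*), other pathway genes higher from 8 to 11, and the median member change from −0.041 to −0.0013. Over all genes the same fits gave 2294 to 2640 higher and 2522 to 2676 lower, all below the 2898 and 2904 of the 6 libraries together. After quantile normalization that median was 0.064. Over all genes 386 higher and 359 lower passed both limits. With a pseudocount of 1 these were 114 and 205, and with a filter at 1 FPKM 242 were higher.

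The changes whose sign turned belonged to genes with a log2 fold change near 0 and to *Chmp4c*, at 0.34 on a few reads. With 1 library left out they ranged over −0.033 to 0.093 for *Stam*, −0.053 to 0.0022 for *Ubap1*, −0.034 to 0.043 for *Vps25*, −0.085 to 0.015 for *Chmp1a*, −0.042 to 0.011 for *Chmp4b*, −0.066 to 0.50 for *Chmp4c*, −0.12 to 0.010 for *Ptpn23*, −0.037 to 0.017 for *Nedd4* and −0.10 to 0.029 for *Stambp*. The log2 ratio differences ranged over −0.095 to 0.084 for *Chmp1b* to *Chmp1a* and −0.032 to 0.65 for *Chmp4c* to *Chmp4b*. After quantile normalization those that turned were *Ubap1* (0.028), *Chmp1a* (0.026), *Chmp4b* (0.13) and *Nedd4* (0.11). Without the variance trend, *Chmp6* (adjusted p = 0.0501) and *Pdcd6* (0.103) lost their calls in limma. *Usp8* lost its call there too (0.113), and with a pseudocount of 0.01 (0.0513), median-ratio scaling (0.0536) and quantile normalization (0.382). The cause of these changes was not tested.

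Same-numbered libraries did not deviate together (correlation across genes −0.029, −0.027 and −0.012), so the numbers were not taken as pairs. With the replicate block, 10 members were higher and 8 lower, and over all genes 2767 and 2875. With it *Hgs* (adjusted p = 0.0423), *Tsg101* (0.0402), *Mvb12a* (0.0469) and *Arrdc1* (0.0293) passed in limma, and *Usp8* (0.0612) did not.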
